A study of Mus musculus with 10 samples.

Results

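The transcription factors that set and hold hepatocyte identity were followed in fibrotic and control mouse liver. The set holds 8 genes, namely Hnf4a, Nr5a2, Cebpa, Foxa1, Foxa2, Foxa3, Onecut1 and Prox1, of 14860 genes that could be named on the array. Each gene was taken by its exact symbol in the annotation of the array platform, and all 8 were found, on 9 probe sets. Onecut1 had 2 probe sets, and the one with the higher mean over all arrays stood for it.

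Livers came from male Balb/c mice that were obtained at 8 weeks of age and, after acclimatisation, received CCl4 or oil for 6 weeks. CCl4 (carbon tetrachloride) is a toxin that hepatocytes activate themselves and that leaves scar tissue when it is given repeatedly. The labels give 5 CCl4 livers and 5 oil livers as biological replicates, 1 array for each. Total RNA of whole liver was measured, so fewer hepatocytes and less RNA per hepatocyte cannot be told apart. Values are log2 expression values as deposited, and a difference is always the mean of the CCl4 livers minus that of the oil livers. A difference of 1 is a 2-fold difference.

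Hepatocyte identity rests on a small network of factors that bind each other's genes as well as the genes of hepatic metabolism and secretion. The FOXA proteins are pioneer factors that open closed chromatin, HNF4A and C/EBPα keep the mature hepatocyte programme switched on, and ONECUT1 (HNF6) acts on other genes of the network during development. NR5A2 (LRH-1) is a nuclear receptor of bile acid and cholesterol metabolism, and PROX1 is a homeodomain protein that acts largely as a corepressor in hepatocytes and is also the master regulator of lymphatic endothelium.

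Some arrays stood apart, and they bear on several values below. CCl4 replicate 4 lay farthest out on the first principal component, which held 30.6% of the variance, and it received the lowest array quality weight, 0.459. In this liver Igfbp1, a fasting-induced and stress-induced gene of hepatocytes, read 12.3 against 4.53 to 6.71 in the other CCl4 livers. Pklr, the liver pyruvate kinase, read 5.64 against 8.80 to 9.53. The clock gene Dbp also varied within groups, between 5.74 and 8.72 in CCl4 livers and between 3.42 and 8.39 in oil livers. The mean level of 6 measured hepatocyte markers was alike in both groups, 12.55 to 12.62 in CCl4 livers and 12.56 to 12.65 in oil livers. The means of the stellate cell and myofibroblast markers were 5.81 to 7.21 against 4.21 to 4.98, and those of the macrophage markers 5.63 to 7.48 against 4.33 to 4.67. Of all 23332 probe sets, 0.63% rose by limma at an adjusted p under 0.05. Of 8 stellate markers 5 rose at that threshold, and of 7 macrophage markers 3 rose. These counts depended on single livers. The stellate count was 2 without CCl4 replicate 1 or without oil replicate 1, 2, 3 or 5. Without CCl4 replicate 4 and oil replicate 3 together it was 0. The macrophage count was 1 without CCl4 replicate 1 or 4 or without any single oil replicate, and 5 without CCl4 replicate 5.

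None of the identity factors passed the test. At a limma adjusted p under 0.05, 0 of the 8 genes rose with CCl4 and 0 fell, where 0.63% of all 23332 probe sets were called higher and 0.09% lower. At an unadjusted p under 0.05 the count was also 0 of 8, where 11.3% of all probe sets passed. That count was 1, Prox1, with the replicate number as a block, without oil replicate 3, and without CCl4 replicate 4 and oil replicate 3 together. The methods' t-test gave 0 of 8 both at the study's thresholds, an unadjusted p under 0.05 with a fold above 1.6, and after Benjamini-Hochberg adjustment. Of all 23332 probe sets, 545 were higher and 155 lower at those thresholds, and 12 and 2 after adjustment. The arrays of both groups overlapped for every one of the 8 genes, where 3.89% of all probe sets had groups that did not overlap. With shares of this size over all probe sets, 0 of 8 does not set these genes apart from the array. The measured difference was above 0 for 2 genes and below 0 for 6, with a median of -0.08, beside 0.01 over all probe sets. The limma adjusted p ran from 0.579 for Prox1 to 0.980 for Onecut1.

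A p that misses the threshold does not show that the levels were equal, so the 95% interval of each difference carries the information. For 7 of the 8 genes the interval lay within a 2-fold difference in either direction. Nr5a2 had the narrowest interval, from -0.43 to 0.10. Onecut1 was the exception, with an interval from -1.51 to 1.32.

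**Figure D1:**
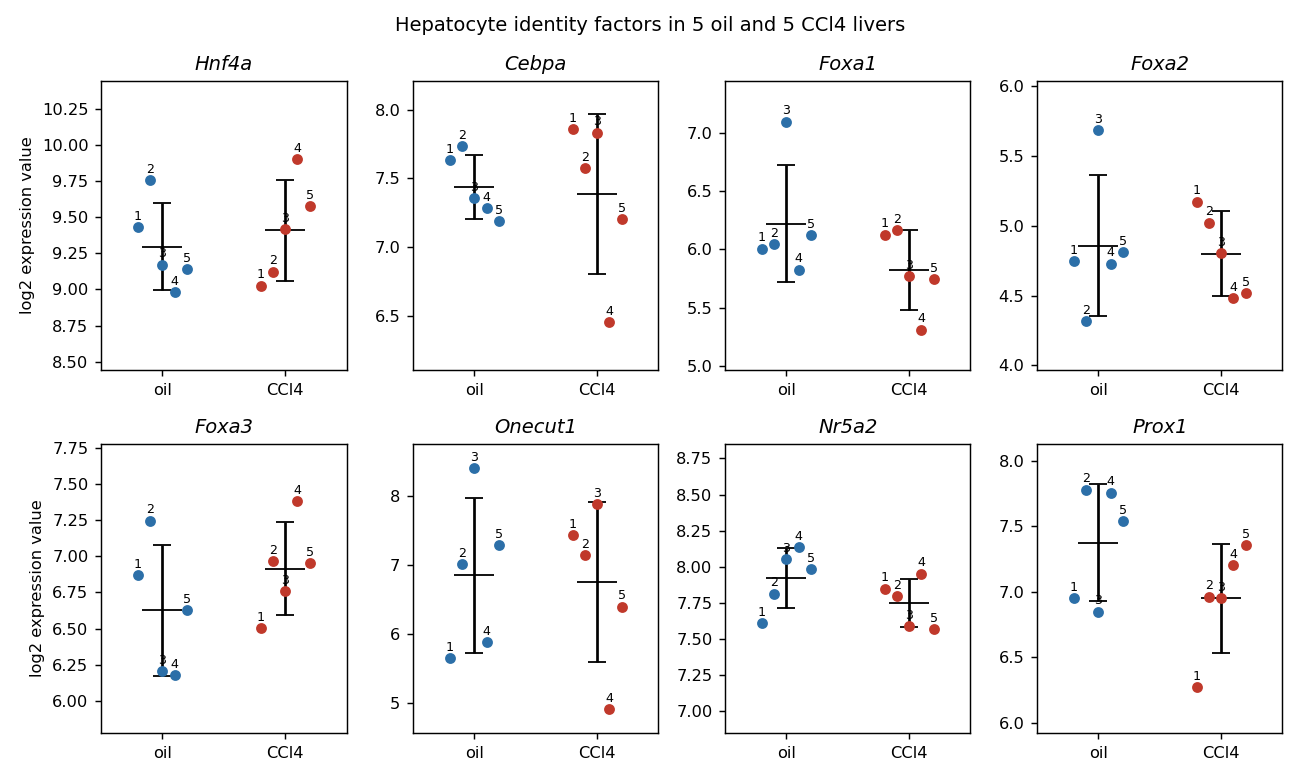
Log2 expression of the 8 hepatocyte identity factors in each of the 5 oil (blue) and 5 CCl4 (red) livers, with replicate numbers beside the points and bars for the group mean and SD on axes that do not start at 0. The groups overlap for all 8 genes, Nr5a2 has the narrowest spread and Onecut1 the widest.

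**Figure D2:**
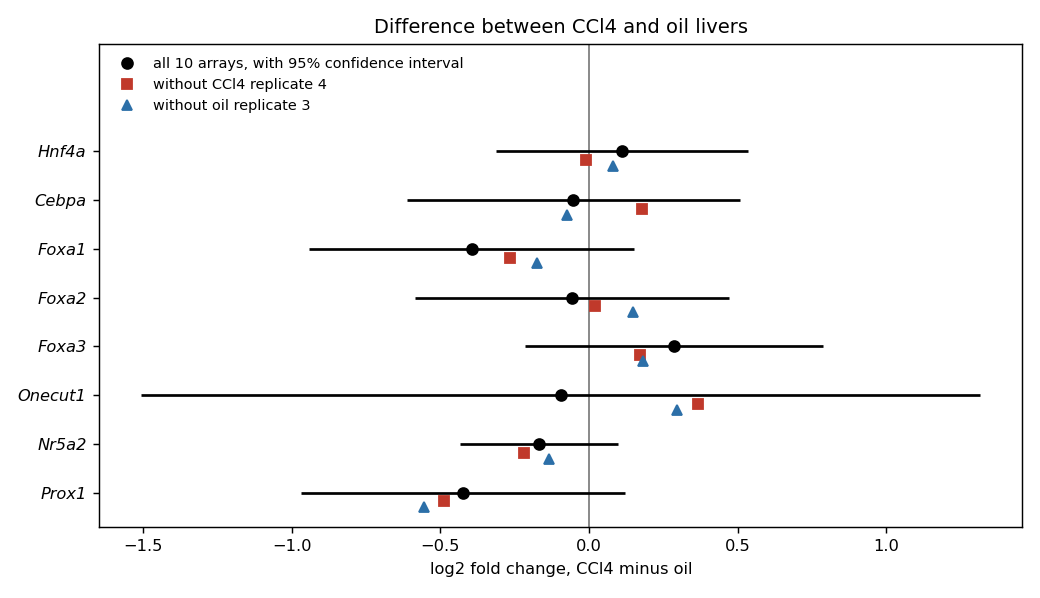
Difference in log2 expression (CCl4 minus oil) for each factor, as black circles with the 95% interval from limma over all 10 arrays, and without CCl4 replicate 4 (red squares) or oil replicate 3 (blue triangles). All 8 intervals include 0, and that of Onecut1 alone reaches beyond 1 in either direction.

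Hnf4a encodes the nuclear receptor at the centre of the hepatocyte network. It read 9.03, 9.12, 9.42, 9.90 and 9.57 in CCl4 replicates 1 to 5, and 9.43, 9.76, 9.17, 8.98 and 9.14 in oil replicates 1 to 5. The highest liver was CCl4 replicate 4, the lowest was oil replicate 4, and the other livers of both groups were interleaved. The means were 9.41 ± 0.35 (SD, n = 5) and 9.30 ± 0.30 (SD, n = 5), a difference of 0.11 ± 0.19 (SE) with a 95% interval from -0.31 to 0.54. This is a fold of 1.08 with limits of 0.805 and 1.45, and the limma adjusted p was 0.904. Without CCl4 replicate 4 the difference was -0.01.

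Hnf4a is transcribed from separate starts, and a stretch before one of them is shown because it holds letters read by another factor of the set. Windows of 300 bases, from 250 before to 50 after each annotated start, were taken from RefSeq (GRCm38.p6) for all 8 genes, 13 windows in all, and 100 bases around a match are printed 5′ to 3′ on the strand of the gene. Capitals mark the matched letters. The stretch holds the HNF6 motif ATTGATT on the opposite strand, beginning 60 bases before the start, and 39 of its bases lie inside the annotated gene. This start is the upstream one. The window of the downstream Hnf4a start, chr2:163546905-163547204, held none of the motifs searched. Which start these livers used was not tested.
Hnf4a, chr2:163506750-163506849, plus strand, HNF6 motif: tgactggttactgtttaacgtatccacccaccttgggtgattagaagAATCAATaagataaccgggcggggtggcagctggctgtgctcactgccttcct

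Over all 32851 RefSeq promoter windows of the same length, searched on both strands, 2.86% held the HNF6 letters. The other motifs searched were CAAAGTCCA for HNF4A, TGTTTAC or TATTTAC for FOXA, TTGCNNAA for C/EBP and TCAAGG for LRH-1. These letters occurred in 0.475%, 6.54%, 10.8% and 14.4% of all windows. Among the 13 windows of the identity factors, HNF4A letters were in 0, FOXA letters in 1, C/EBP letters in 1, HNF6 letters in 2 and LRH-1 letters in 3, and 7 windows held none. No motif overlapped another on the stretches printed. A match is a string of letters and says nothing about binding in these livers. The expression values are per gene and do not separate the starts.

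Nr5a2, the bile acid and cholesterol regulator, had the least variation of the 8 genes. It read 7.85, 7.80, 7.59, 7.95 and 7.57 in CCl4 replicates 1 to 5 and 7.61, 7.81, 8.05, 8.14 and 7.99 in the oil replicates. The highest 3 livers were oil livers, and the lowest 2 were CCl4 livers, yet oil replicate 1 lay next to these. Means of 7.75 ± 0.17 (SD, n = 5) and 7.92 ± 0.21 (SD, n = 5) gave a difference of -0.17 ± 0.12 (SE), a fold of 0.890 with limits of 0.740 and 1.07 (limma adjusted p = 0.678). Its residual SD, the spread within groups, was 0.19, at percentile 27.9 of the 11666 brighter probe sets, which are those with a mean above the median.

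Cebpa encodes C/EBPα, a leucine zipper factor of hepatic metabolism that also restrains proliferation. It read 7.86, 7.58, 7.83, 6.46 and 7.20 in the CCl4 livers and 7.63, 7.73, 7.35, 7.28 and 7.19 in the oil livers, in replicate order. CCl4 replicate 4 was the lowest of all 10 livers and CCl4 replicates 1 and 3 were the highest, so the oil livers lay inside the range of the CCl4 livers. The difference was -0.05 ± 0.25 (SE), between means of 7.39 ± 0.58 (SD, n = 5) and 7.44 ± 0.23 (SD, n = 5), with an interval from -0.61 to 0.51 and a limma adjusted p of 0.973. Without CCl4 replicate 4 it was 0.18.

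The FOXA pioneer factors, Foxa1, Foxa2 and Foxa3, each had an interval that included 0. Foxa1 read 6.13, 6.17, 5.77, 5.31 and 5.74 in the CCl4 livers and 6.01, 6.04, 7.10, 5.83 and 6.12 in the oil livers. Oil replicate 3 stood well above the other 9 livers and CCl4 replicate 4 was the lowest. The difference was -0.40 ± 0.25 (SE), between means of 5.82 ± 0.35 (SD, n = 5) and 6.22 ± 0.50 (SD, n = 5), with an interval from -0.94 to 0.15 and a limma adjusted p of 0.614. Without oil replicate 3 it was -0.18, less than the spread within groups.

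Foxa2, which acts with Foxa1 in liver specification and in bile acid and fasting metabolism, had its extremes among the oil livers. It read 5.17, 5.02, 4.81, 4.48 and 4.52 in the CCl4 livers and 4.75, 4.32, 5.69, 4.73 and 4.81 in the oil livers. Oil replicate 3 was again the highest liver, and oil replicate 2 was the lowest. The difference was -0.06 ± 0.24 (SE) between means of 4.80 ± 0.31 (SD, n = 5) and 4.86 ± 0.50 (SD, n = 5), with an interval from -0.59 to 0.47 (limma adjusted p = 0.969).

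Foxa3, a FOXA member that is abundant in adult liver, differed from both in which livers were high. It read 6.50, 6.97, 6.76, 7.38 and 6.95 in the CCl4 livers and 6.87, 7.25, 6.21, 6.18 and 6.63 in the oil livers. CCl4 replicate 4 and oil replicate 2 were the highest, and oil replicates 3 and 4 were the lowest. The difference was 0.29 ± 0.23 (SE), between means of 6.91 ± 0.32 (SD, n = 5) and 6.63 ± 0.45 (SD, n = 5). Its fold of 1.22 had limits of 0.862 and 1.73, and the limma adjusted p was 0.725. Setting aside CCl4 replicate 4 gave 0.17, and setting aside oil replicate 2, 3 or 4 gave 0.44, 0.18 or 0.17.

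The stretches of Foxa1 and Foxa2 that hold letters of the network's own factors are shown beside their values. Foxa1 holds the FOXA motif TGTTTAC on the opposite strand, beginning 141 bases before a start, and this stretch lies wholly inside the annotated gene. Foxa2 holds ATTGATT, the HNF6 motif, as written and 213 bases before its start, and none of the stretch lies inside the annotated gene.
Foxa1, chr12:57546200-57546299, minus strand, FOXA motif: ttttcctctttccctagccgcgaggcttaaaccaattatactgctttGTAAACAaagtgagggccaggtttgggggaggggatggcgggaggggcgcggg
Foxa2, chr2:148047120-148047219, minus strand, HNF6 motif: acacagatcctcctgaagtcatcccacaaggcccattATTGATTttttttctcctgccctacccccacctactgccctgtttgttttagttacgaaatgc

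Onecut1 encodes HNF6, a cut-homeodomain factor of hepatocytes and bile duct cells. It read 7.43, 7.15, 7.88, 4.92 and 6.40 in the CCl4 livers and 5.65, 7.01, 8.41, 5.88 and 7.30 in the oil livers. Oil replicate 3 was the highest and CCl4 replicate 4 the lowest, and the livers of both groups were spread between them. The means were 6.76 ± 1.16 (SD, n = 5) and 6.85 ± 1.12 (SD, n = 5), and the difference of -0.10 ± 0.64 (SE) had a limma adjusted p of 0.980. Its residual SD of 1.14 stood at percentile 99.2 of the brighter probe sets, above nearly all of them.

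Because of this spread, the interval of Onecut1, from -1.51 to 1.32, holds differences of more than 2-fold in either direction. The smallest difference detectable with 5 livers a group was not calculated. Without CCl4 replicate 4 the difference was 0.36 with a limma adjusted p of 0.884, and without oil replicate 3 it was 0.30. The dimmer probe set read 4.15, 4.59, 4.38, 3.04 and 5.21 in the CCl4 livers and 3.91, 4.66, 4.55, 4.32 and 5.38 in the oil livers. CCl4 replicate 4 was again the lowest liver, but oil replicate 5 rather than 3 was the highest. The dimmer probe set gave a difference of -0.29 ± 0.38 (SE) with an interval from -1.13 to 0.56 (limma adjusted p = 0.869). The probe sets correlated with r = 0.561 over the 10 arrays after the group means were removed. They share arrays and a gene.

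Prox1 had the largest measured difference of the 8 genes. It read 6.28, 6.96, 6.95, 7.20 and 7.35 in the CCl4 livers and 6.95, 7.78, 6.85, 7.76 and 7.54 in the oil livers. The highest 3 livers were oil livers and the lowest was CCl4 replicate 1, while oil replicates 1 and 3 lay among the CCl4 livers. Means of 6.95 ± 0.41 (SD, n = 5) and 7.37 ± 0.44 (SD, n = 5) gave a difference of -0.42 ± 0.25 (SE), with an interval from -0.97 to 0.12. This is a fold of 0.745 with limits of 0.511 and 1.09, and the limma adjusted p was 0.579. With 1 array left out the difference ranged from -0.26, without CCl4 replicate 1 (limma adjusted p = 0.754), to -0.56, without oil replicate 3 (limma adjusted p = 0.497).

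Prox1 is also expressed by lymphatic endothelium, so 3 measured genes from a list for that cell type, Lyve1, Pdpn and Reln, are given beside it. Their mean level was 5.20 to 6.24 in CCl4 livers and 4.09 to 5.31 in oil livers. For all 3 the CCl4 mean was above the oil mean, the reverse of Prox1. At a limma adjusted p under 0.05 0 passed, where 0.63% of all probe sets were higher, or 1 without oil replicate 4. At an unadjusted p under 0.05 all 3 were higher, where 7.03% of all probe sets were higher. Lyve1 varied widely within groups. It read 8.39 in CCl4 replicate 4, against 5.15 to 6.53 in CCl4 replicates 1, 2, 3 and 5. In oil replicate 4 it read 6.04, against 3.39 to 4.35 in oil replicates 1, 2, 3 and 5. Lyve1 also marks sinusoidal endothelium, and the part of either cell type in the Prox1 values was not tested. How specific the 3 genes are to lymphatic endothelium in these livers was not tested either.

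Within groups, the factors varied in opposite directions in the same livers. CCl4 replicate 4 was the lowest CCl4 liver for 4 genes, by 2.30 for Onecut1, 1.16 for Cebpa, 0.64 for Foxa1 and 0.40 for Foxa2 below the mean of the other CCl4 livers. It was the highest CCl4 liver for 3 genes, by 0.61 for Hnf4a, 0.58 for Foxa3 and 0.25 for Nr5a2. Oil replicate 3 was the highest oil liver for Onecut1, Foxa1 and Foxa2, by 1.95, 1.10 and 1.03. In that liver Foxa3 lay below the mean of the other oil livers by 0.53 and Prox1 by 0.66.

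**Figure D3:**
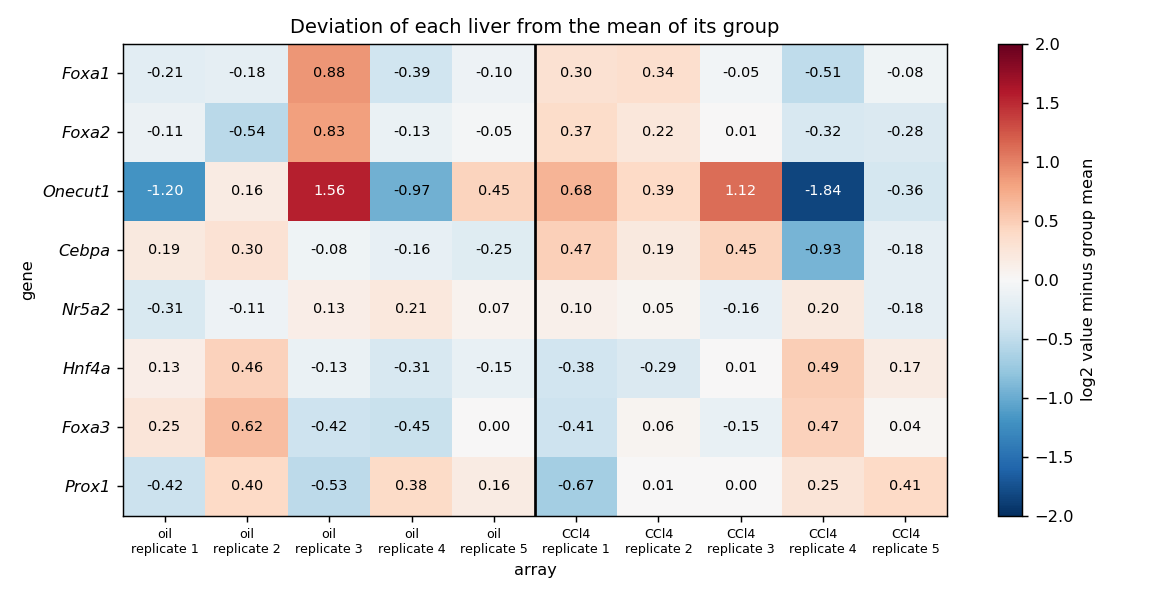
Deviation of each factor in each liver from the mean of its group, printed and coloured in log2 units, for 5 oil and 5 CCl4 livers. CCl4 replicate 4 is low for Onecut1, Cebpa, Foxa1 and Foxa2 and high for Hnf4a and Foxa3, and oil replicate 3 is high for Onecut1, Foxa1 and Foxa2.

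These shared deviations were described by the correlation of each pair of factors over the 10 arrays, after the group means were removed. The points of every pair share the same 10 RNA samples and arrays, so the values are a description only. Of 28 pairs, 12 had r above 0 and 16 below, between -0.777 and 0.889. Foxa1 and Foxa2 had the highest value, r = 0.889 (rho = 0.818), which was 0.581 without CCl4 replicate 4 and oil replicate 3. Hnf4a and Foxa3 followed with r = 0.858 (rho = 0.745), which was 0.841 without the same livers. For this pair r was 0.642 without CCl4 replicate 4 and oil replicate 2, the livers farthest from the median of Hnf4a. Foxa1 and Onecut1 had r = 0.809 (rho = 0.855). Without CCl4 replicate 4 and oil replicate 3 their r was 0.373, so that this relation rests on those livers. For Foxa2 and Onecut1 r was 0.653 (rho = 0.770), 0.115 without CCl4 replicate 4 and oil replicate 3, and 0.685 without oil replicates 2 and 3.

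Inverse pairs joined the same genes. Foxa2 and Prox1 had the lowest value, r = -0.777 (rho = -0.842), and -0.718 without CCl4 replicate 4 and oil replicate 3. For Foxa2 and Foxa3, paralogues of one family, r was -0.731 (rho = -0.624), and -0.617 without those livers. For Hnf4a and Foxa2 it was -0.669 (rho = -0.697), and -0.871 without them, but -0.434 without CCl4 replicate 4 and oil replicate 2, the livers farthest from the median of Hnf4a. All 3 pairs kept a negative r in each of these omissions.

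**Figure D4:**
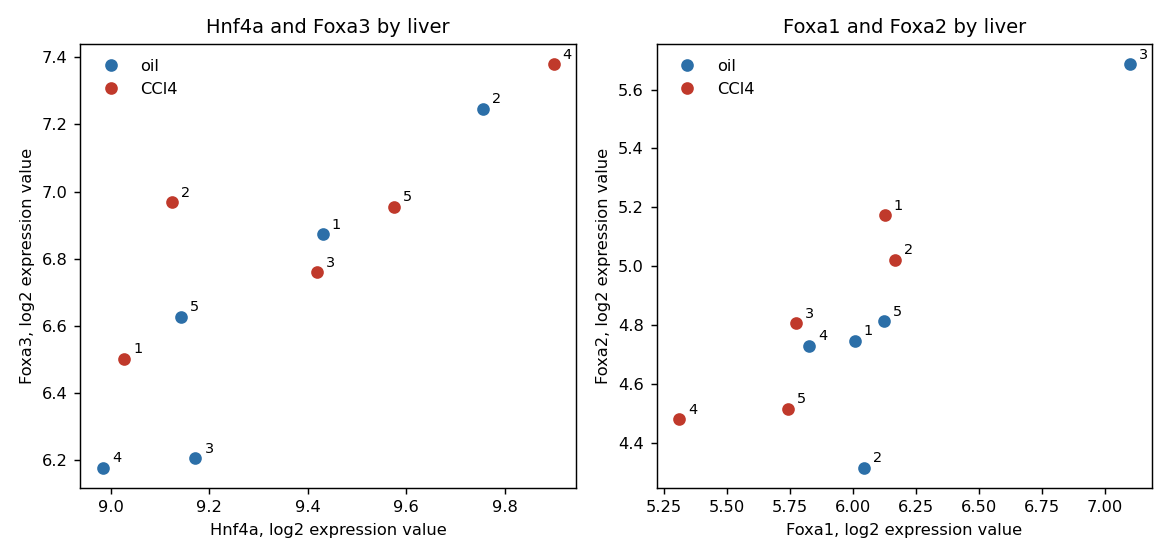
Log2 expression of Foxa3 against Hnf4a (left) and of Foxa2 against Foxa1 (right) in each liver, with oil in blue, CCl4 in red and replicate numbers beside the points. The livers of both groups lie along 1 rising band on the left, from oil replicate 4 to CCl4 replicate 4, and oil replicate 3 stands alone at the upper end on the right.

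The clock genes varied across the same livers. Dbp, an output of the clock, read 8.72, 8.08, 5.74, 5.76 and 6.31 in CCl4 replicates 1 to 5 and 8.39, 7.77, 3.43, 4.04 and 3.42 in oil replicates 1 to 5. It was high in replicates 1 and 2 of both groups. With the difference of Dbp and Arntl as a covariate, Prox1 stood at -0.35, Foxa1 at -0.40, Cebpa at -0.22, Foxa3 at 0.20 and Hnf4a at 0.10. The smallest limma adjusted p among the 8 genes was then 0.635.

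For each factor, the genes with the most similar profile were taken over the 10 arrays from 8776 other genes on brighter probe sets, by Pearson r after the group means were removed. Marchf6 (r = 0.976) and Fitm2 (0.969) were nearest to Hnf4a, and Gulo (0.962) and Slc46a3 (0.957) to Cebpa. Nup88 (0.974) and Zfp386 (0.972) were nearest to Nr5a2. B4galt1 (0.938) and Slc35d1 (0.937) were nearest to Foxa1, Iqsec1 (0.897) and Rhoa (0.885) to Foxa2, and Anks1 (0.958) and Nceh1 (0.940) to Foxa3. Lsm12 (0.952) and Tnfsf11 (0.951) were nearest to Onecut1, and Llgl1 (0.942) and Prorsd1 (0.933) to Prox1. The highest of 8776 correlations over 10 arrays are large by selection.

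The wider set of liver-enriched transcription factors held 28 measured genes. At a limma adjusted p under 0.05, 0 of 28 were higher and 0 were lower. At an unadjusted p under 0.05, 1 was higher and 6 were lower, where 7.03% of all probe sets were higher and 4.27% lower. The median difference was -0.04, against 0.01 over all genes. By the methods' t-test at the study's thresholds 4 were lower, where 155 of all 23332 probe sets were lower. After Benjamini-Hochberg adjustment of that test 0 of the 28 were lower.

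The members of this wider set with the smallest adjusted p all had lower means in CCl4 livers. Nr1i3, which encodes the xenobiotic receptor CAR, read 7.16, 6.62, 7.37, 6.92 and 7.87 in the CCl4 livers and 8.40, 8.17, 7.94, 7.79 and 7.87 in the oil livers. Only CCl4 replicate 5 reached the oil range. The difference was -0.85 ± 0.22 (SE), with an interval from -1.33 to -0.37 and a limma adjusted p of 0.122. Without CCl4 replicate 5 it was -1.02, and Nr1i3 and Bcl6 then passed the threshold.

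Bcl6, a transcriptional repressor of lipid genes in male liver, read 3.83, 4.47, 4.36, 4.71 and 7.51 in the CCl4 livers and 7.35, 7.35, 5.03, 7.83 and 7.36 in the oil livers. CCl4 replicate 5 lay with the oil livers, and oil replicate 3 lay closest to the other CCl4 livers. Its difference was -2.01 ± 0.72 (SE; limma adjusted p = 0.298). Tbx3, a T-box factor of pericentral hepatocytes, differed by -1.32 (limma adjusted p = 0.142). Mlxipl, which encodes the glucose-responsive factor ChREBP, differed by -0.74 (limma adjusted p = 0.239). All 4 genes had intervals that lay below 0 before adjustment, but they were picked for the smallest p in the wider set. This is therefore no contrast with the 8 identity factors.

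**Figure D5:**
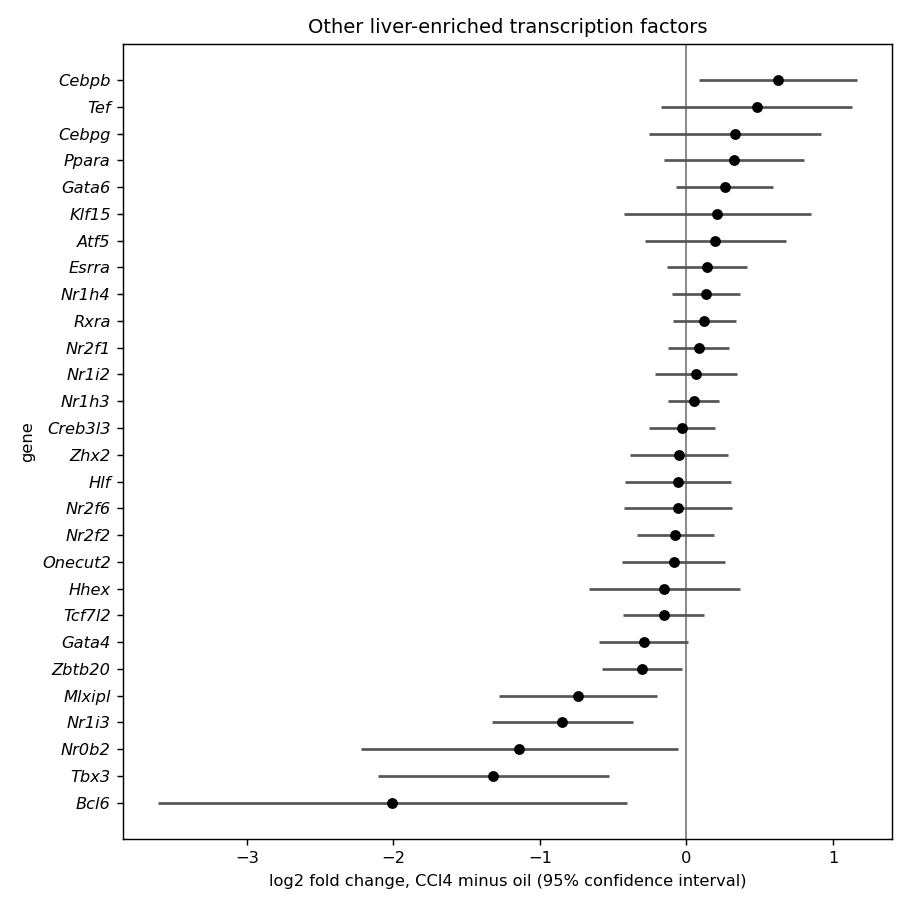
Difference in log2 expression (CCl4 minus oil) of the 28 other measured liver-enriched transcription factors, as points with 95% intervals from limma, which are not adjusted for the number of genes. Bcl6, Tbx3, Nr0b2, Nr1i3 and Mlxipl lie farthest below 0, and none of the 28 passed at an adjusted p under 0.05.

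Classical target genes of HNF4A, C/EBPα and FOXA were counted in the same way. Of 24 listed targets 17 were measured, and 0 were higher and 0 lower at a limma adjusted p under 0.05, with 0 higher and 2 lower at an unadjusted p under 0.05, where 4.27% of all probe sets were lower. Apoa2 alone had groups that did not overlap, where 3.89% of all probe sets did not. Their median difference was -0.07. Cyp2d9, a male-biased cytochrome P450, had the smallest adjusted p, with a difference of -0.52 (limma adjusted p = 0.163). Apoa2, an apolipoprotein of HDL, differed by -0.14 without overlap of the groups (limma adjusted p = 0.440). F7, coagulation factor VII, differed by -0.19 (limma adjusted p = 0.599), or by -0.11 without CCl4 replicate 4. Igfbp1 differed by 2.24 (limma adjusted p = 0.535), which was 0.97 without CCl4 replicate 4.

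Listed targets of NR5A2 had a median difference of -0.33 over 9 measured of 10 listed. The difference was above 0 for 3 genes and below 0 for 6. Those above 0 were Cyp7a1 (1.25, limma adjusted p = 0.694), Scarb1 (0.22) and Cyp11a1 (0.16). Cyp11a1 read 1.80 and 1.64 in the mean of CCl4 and oil livers, under the lowest array median of 2.54. Of these 9, 0 passed at a limma adjusted p under 0.05 in either direction, 4 were lower at an unadjusted p under 0.05 (4.27% of all probe sets), and 2 had groups that did not overlap (3.89% of all probe sets). By the methods' t-test at the study's thresholds Abcg8 alone was lower, where 155 of all 23332 probe sets were lower. After adjustment of that test 0 of the 9 were lower.

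Slc10a1, the sodium-dependent bile acid importer NTCP, read 11.53, 11.21, 11.46, 11.12 and 11.28 in the CCl4 livers and 11.61, 11.69, 11.69, 11.67 and 11.57 in the oil livers. All CCl4 livers lay below all oil livers. Its difference was -0.33 ± 0.09 (SE), with a limma adjusted p of 0.154. Abcg8 and Abcg5, the subunits of the canalicular sterol exporter, differed by -0.79 and -0.49 (limma adjusted p = 0.240 and 0.332), and the groups of Abcg8 did not overlap. Nr0b2, the corepressor SHP that feeds back on NR5A2, differed by -1.14 (limma adjusted p = 0.408), with CCl4 replicate 2 lowest at 4.82. Without that liver it differed by -0.74 (limma adjusted p = 0.594). Nr5a2 itself stood at -0.17, within its spread, as given above.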

How the data were processed

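The authors deposited 1 log2 value for each of 23332 probe sets and 10 arrays. The log2 scale was inferred, since the largest value was 13.4, and a 16-bit scanner cannot exceed 16 on a log2 scale or 11.1 on a natural log scale. For normalization and summarisation, the software is not given in the sources used here. Regarding the platform, the series description names the Mouse Exon ST array and the methods the Mouse Gene ST array. In the platform annotation, 14996 probe sets had 1 symbol, 1019 several and 7317 none, and genes were named only from probe sets with 1 symbol.

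The deposited values were tested with limma (version 3.58.1, R 4.3.3), with both groups in the fit, no covariate, and Benjamini-Hochberg adjustment over all probe sets at a threshold of 0.05. The procedure was tested on simulated data. Precision is limited by the number of arrays, no detection calls were used, and dim probe sets compress differences. All 8 identity factors were named, with the 4 members of smallest adjusted p in each of 3 lists (other liver-enriched factors, targets of HNF4A, C/EBPα and FOXA, and targets of NR5A2) and 2 genes of like profile per factor. Marker lists for hepatocytes, bile duct cells, stellate cells, macrophages, exocrine pancreas and lymphatic endothelium were also measured. Exocrine pancreas had 1 lower marker, Cela1, of 6, where 0.09% of all probe sets were lower. Bile duct cells had 0 of 6 past the threshold, and the groups of Epcam alone did not overlap (3.89% of all probe sets). Means lay below the median probe set for 5 of the 6 pancreas markers and 4 of the 6 bile duct markers. These counts therefore say little about either cell type. The members and lists were chosen with earlier results of these data known. Alternatives were quantile normalization, median centring, brighter probe sets only, array quality weights, the methods' t-test, a clock covariate, limma with trend and robust settings, other Onecut1 probe sets, the replicate number as a block and leaving out each array. Leaving out CCl4 replicate 4 with oil replicate 3 was added after seeing the data.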

Additional observations from a re-analysis of the deposited data

Results flagged for a closer look

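Foxa1 in oil replicate 3 read 7.10, far from the other oil livers at 5.83 to 6.12, with a gap of 0.768 of the whole range of the group. It was the single value that stood apart in this way among 16 groups tested, 8 genes in each of the CCl4 and oil groups, and chance flags about 1 in 20 such groups.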

How the results depend on the processing

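None of the 162 values of the identity factors under 22 alternatives passed the threshold, and 14 changed sign. These 14 were values of Hnf4a, Cebpa, Foxa2 or Onecut1, and the cause was not tested. The difference itself cannot change with the replicate block, brighter probe sets only, the methods' t-test, or trend and robust settings. With 1 array left out, the difference ranged from -0.01 to 0.23 for Hnf4a, from -0.17 to 0.18 for Cebpa, from -0.19 to 0.15 for Foxa2 and from -0.395 to 0.365 for Onecut1. Cebpa was 0.082 with array quality weights. Without CCl4 replicate 4 and oil replicate 3, Hnf4a was -0.042, Cebpa 0.16, Foxa1 -0.047, Foxa2 0.23, Foxa3 0.065, Onecut1 0.75, Nr5a2 -0.19 and Prox1 -0.62. Of the other liver-enriched factors, 4 were lower by the methods' t-test at the study's thresholds and 0 to 2 with 1 array left out, while 1 NR5A2 target was lower by that t-test. Over all probe sets, 147 were higher and 21 lower, against 545 and 155 by the methods' t-test at the study's thresholds, 12 and 2 after its adjustment, 251 and 47 among brighter probe sets, 45 and 9 with the clock covariate, 39 lower with quantile normalization, 36 lower with median centring, 30 to 259 higher and 5 to 40 lower with 1 array left out, and 6 and 2 without CCl4 replicate 4 and oil replicate 3. The stellate count was 2 with the clock covariate and 1 by the methods' t-test after adjustment. The 1 lower pancreas marker, Cela1, was lost in each fit that left out 1 array except that without CCl4 replicate 3.

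The labels do not say whether replicate numbers pair the livers, and the values do not settle it. Dbp was high in replicates 1 and 2 of both groups. Deviations of same-numbered livers correlated with r between -0.04 and 0.16, and 2 of 5 CCl4 livers correlated best with their own number. With the replicate block, 0 identity factors passed; the differences cannot move in this balanced fit, and Prox1, at -0.42, had an unadjusted p under 0.05 and a limma adjusted p of 0.355. In the same fit, 30 probe sets were higher and 6 lower, with 1 stellate and 1 macrophage marker among them.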
